A study of Rattus norvegicus with 18 samples.

Results

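Gene expression in the dorsal hippocampus was compared between rats with any ethanol history and rats that never received ethanol. Of 18 rats in all, the 12 with an ethanol history were those labelled Chronic Ethanol (6 rats) or Withdrawal (6 rats). The other 6 carried the label Control. All were adult male Sprague Dawley/WT rats, 75 to 85 days old, that were fed the Lieber-DeCarli liquid diet, in which ethanol can replace part of the calories. Ethanol rats reached 9% v/v ethanol, stayed on it for 16 days and were killed at 0 h of withdrawal. Withdrawal rats stayed on it for 15 days and then had control diet for 24 h, and control rats, which were pair fed, had the diet without ethanol throughout. Each library came from 1 rat, so that the replicates are separate animals. The study describes decapitation under isoflurane with no mention of perfusion for these brains. The pooled comparison asks which transcripts had moved on ethanol and had not returned 1 day after its removal, so each gene was also compared between withdrawal and ethanol rats.

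The 18 libraries held 30873228 to 42679748 counts each (median 36302755). Levels are given as CPM, which are counts scaled by library size after the TMM method. The first index of the library barcodes came from 1 set in all 6 control rats and from other sets in all 12 rats with an ethanol history (set 2 in the 6 ethanol rats and in withdrawal rats 1 and 2, set 3 in withdrawal rats 3 to 6). Index set and ethanol history can therefore not be told apart in any result below. Withdrawal rats 1, 4 and 5 and ethanol rat 1 lay farthest from the centre of the first 3 axes of a principal component analysis, and the main counts below were made also without them.

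The dorsal hippocampus holds the pyramidal cells of the CA fields, the granule cells of the dentate gyrus, interneurons, glia and a dense capillary bed. RNA from whole tissue also contains what the vessels carry, such as red cells. Young red cells keep mRNA for the globin chains and for the erythroid enzyme of heme synthesis for a short time after they have lost their nucleus. Ribosomal protein genes, a second group described below, are transcribed in every cell, and their mRNAs begin with a run of pyrimidines through which growth signals control their translation.

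Of 16619 genes tested, 405 differed between the 12 rats with an ethanol history and the 6 control rats (q < 0.1, limma-voom with 3 surrogate variables, which are unnamed sources of variation estimated from the data). This is 2.44% of the genes tested, with 250 increased (1.50%) and 155 decreased (0.933%). Without surrogate variables limma-voom called 45 genes (0.271%), 23 increased (0.138%) and 22 decreased (0.132%), and all 45 were also among the 405. Also without them, the quasi-likelihood test of edgeR called 37 genes and DESeq2 called 234. The 45 genes called in both limma-voom models are described first below. Genes said to be called only with surrogate variables are those called in the first of these models and not in the second, whatever DESeq2 gave. Most changes were small. The median absolute log2 fold change was 0.25 in the 405 genes and 0.07 in all genes tested, 55 of the 405 changed by more than 1.5-fold (37 of them decreased), and 13 by more than 2-fold (12 decreased). The split between the directions depended on the scaling, with 193 increased and 214 decreased genes after upper quartile scaling and 187 and 184 with library size alone.

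The number of calls rested on single rats, above all controls. It fell to 44 without control rat 6, 78 without control rat 4, 88 without control rat 3, 160 without control rat 1 and 231 without control rat 2. It was 203 and 195 without ethanol rats 5 and 6 and 188 without withdrawal rat 6, and it rose to 659 without ethanol rat 2 and to 742 without withdrawal rat 2. Of the 45 genes, 20 kept q < 0.1 in each of the 18 models that left out 1 rat (7 increased, 13 decreased), and control rat 6 ended the most calls when left out (25 of 45). Without withdrawal rat 1, 4 or 5 or ethanol rat 1 and with no surrogate variables, 18, 25, 27 and 22 genes were called. With withdrawal rats 1 and 5 and ethanol rat 1 left out together and 3 surrogate variables, 323 genes were called, with 43 of the 45 among them. With withdrawal rat 4 left out as well, which leaves 8 rats with an ethanol history, 6 genes were called with 3 surrogate variables and 3 with none, and of the 45 genes 2 and 3 were called. All 45 kept their direction in both of these models, but the models reuse rats in which the genes were chosen, so this adds no support.

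In 23 genes (0.138% of those tested) the 12 rats with an ethanol history all lay on one side of the 6 control rats, 14 above (0.0842%) and 9 below (0.0542%). Of these, 22 were among the 405 called genes, the exception being Icam1. Of the 45 genes called in both models, 12 were separated in this way. Those above control were Sppl2b, Ube2m, H2az1, Rpl27, Oaz1, Ckb, Gpx4, Rpl18, Emcn, Zbtb7b, Gadd45g, Kcmf1, Emc6 and Icam1. Those below with a gene symbol were Nhlh1, Smok, Slc25a51l1, Hint3, Ilk and Tab3. None of the 23 differed between withdrawal and ethanol rats (q < 0.1, limma-voom), where 511 of all genes did (3.07%).

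Transcripts of red cells gave the largest group of decreases. All 5 hemoglobin genes that passed the filter on low values were decreased in rats with an ethanol history, to between 0.339 and 0.3999 of the control level, against a background of 0.933% decreased genes. Alas2, which encodes the erythroid enzyme of the first step of heme synthesis, fell to the same extent. The 6 genes were called in both models and in each of the 18 models that left out 1 rat. With the 4 rats farthest from the centre left out together, 1 of the 5 hemoglobin genes was called with surrogate variables and 2 without them, and Alas2 in neither. The log2 fold changes were then −1.35 and −1.46 for Hbb (q = 0.109 and 0.0846 by limma-voom) and −1.37 and −1.58 for Alas2 (q = 0.232 and 0.148).

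For Hbb, a beta chain of hemoglobin (chromosome 1, 168971269 to 168972680 of Rnor_6.0), the 6 control rats had 88.98, 80.97, 93.4, 82.3, 56.9 and 101 CPM. The 6 ethanol rats had 16.2, 39.5, 35.2, 28.2, 24.9 and 20.7 CPM, and the 6 withdrawal rats had 22.1, 63.8, 17.6, 22.6, 59.1 and 26.8 CPM. All 6 ethanol rats lay below every control rat, as did 4 of the 6 withdrawal rats, whereas withdrawal rats 2 and 5 lay above the lowest control rat. The difference was −1.54 on the log2 scale (SE 0.226, q = 0.0124 by limma-voom, 0.0322 without surrogate variables, two-sided exact permutation p = 0.000162), a fold of 0.343 with a 95% interval of 0.246 to 0.477. Withdrawal and ethanol rats differed by 0.09 (95% interval −0.62 to 0.79, q = 0.920 by limma-voom), so that no return toward the control level was detected at 24 h, although the interval is wide.

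Hba-a1, an alpha chain gene (chromosome 10, 15602794 to 15603649), was lowered in much the same rats. It lay at 47.6 to 82.7 CPM (median 72.2) in control rats, 13.8 to 40.1 CPM (median 23.4) in ethanol rats and 17.7 to 60.8 CPM (median 22.2) in withdrawal rats (−1.40 ± 0.228 SE on the log2 scale, limma-voom q = 0.0146, exact permutation p = 0.000323). Withdrawal rats 2 (60.8 CPM) and 5 (53.7 CPM) were again those that overlapped with control. Hba-a2 (chromosome 10, 15589364 to 15590207; log2 fold change −1.56, q = 0.0124 by limma-voom), Hba-a3 (chromosome 10, 15577249 to 15577977; −1.49, q = 0.0116) and the beta chain gene Hbbl1 (chromosome 1, 168957460 to 168958836; −1.32, q = 0.0167) changed by similar amounts. The globin genes of a cluster are near-identical copies and read pairs mapping to several places were not counted, so how the counts divide among the copies is uncertain. Their sum does not rest on that division, and it lay at 147 to 259 CPM (median 216) in control, 44.1 to 111 CPM (median 69.97) in ethanol and 48.3 to 173 CPM (median 65.1) in withdrawal rats. In 10 of the 12 rats with an ethanol history the sum was below that of every control rat.

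Alas2 (chromosome X, 23167576 to 23187356) was at 2.59, 2.20, 1.75, 2.08, 1.40 and 2.82 CPM in the control rats. It was at 0.285, 0.647, 1.05, 0.669, 0.934 and 0.327 CPM in the ethanol rats and at 0.521, 1.55, 0.393, 0.754, 1.53 and 0.557 CPM in the withdrawal rats (−1.58 ± 0.268 SE on the log2 scale, limma-voom q = 0.0146, exact permutation p = 0.000162). The same 2 withdrawal rats were the highest of their group. None of the other 8 genes of heme synthesis passed the test, including Alas1, the form of the enzyme used outside the red cell lineage (log2 fold change 0.01, q = 0.936 by limma-voom). In a wider list of red cell genes other than globins, drawn up after the hemoglobins had been seen, 12 of 23 members passed the filter, and Alas2 was the only one called. Slc4a1, which encodes the anion exchanger of the red cell membrane, was below the filter. In tissue RNA fewer red cells and less globin mRNA per cell cannot be told apart, and which of them applies was not tested. The summed level of the 23 endothelium markers is given below, and its relation to the red cell transcripts was not tested.

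The sequences before these genes are shown because all 6 genes fell together and because the globin and Alas2 promoters are textbook targets of erythroid factors. Each is the 150 bases before the RefSeq start of the gene in GRCr8, 5′ to 3′ on the strand of the gene, and capitals mark the motifs searched on both strands. They were CACCC, the box bound by KLF1, the CCAAT box, the TATA box in the form TATAAA, and the letters GATAA, which GATA1 binds.
Hbb, chr1:167663722-167663871, minus strand: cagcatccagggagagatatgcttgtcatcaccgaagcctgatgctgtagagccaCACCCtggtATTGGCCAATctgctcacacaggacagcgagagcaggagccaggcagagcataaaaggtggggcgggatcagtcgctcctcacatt
Hba-a1, chr10:15842581-15842730, minus strand: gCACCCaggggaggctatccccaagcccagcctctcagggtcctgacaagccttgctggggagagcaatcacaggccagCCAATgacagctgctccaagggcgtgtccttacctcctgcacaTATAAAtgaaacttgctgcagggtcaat
Alas2, chrX:22895300-22895449, plus strand: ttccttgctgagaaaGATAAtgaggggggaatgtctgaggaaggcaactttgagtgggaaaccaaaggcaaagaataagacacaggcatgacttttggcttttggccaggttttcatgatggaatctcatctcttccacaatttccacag
In Hbb a CACCC began at position −95 from the start and a CCAAT at −81, with a second CCAAT on the other strand just before it, and the window held no TATAAA. Hba-a1 held CACCC at −149, CCAAT at −71 and TATAAA at −28, and the motifs did not overlap. The window of Alas2 held 1 GATAA, at −135, and none of the other 3 motifs. Of 33469 rat promoters of this length, 35.2% held CACCC, 23.5% CCAAT, 8.00% TATAAA and 14.2% GATAA on either strand, and 0.454% held the first 3 together. A match of letters is a description and shows no binding.

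Among the other decreased genes called in both models, C3, the central protein of the complement cascade (chromosome 9, 9721137 to 9747084), was lowered in most of the 12 rats. It was at 25.97 to 45.01 CPM (median 33.3) in control rats, 15.8 to 26.7 CPM (median 19.3) in ethanol rats and 14.9 to 27.3 CPM (median 18.6) in withdrawal rats (−0.83 ± 0.133 SE on the log2 scale, limma-voom q = 0.0146, exact permutation p = 0.000215). Ethanol rat 4 and withdrawal rats 2 and 4 lay within the control range and the other 9 rats below it. Withdrawal and ethanol rats differed by 0.13 (95% interval −0.27 to 0.53, q = 0.767 by limma-voom). None of the 15 complement genes tested was increased.

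Nhlh1, which encodes a basic helix-loop-helix transcription factor of developing neurons (chromosome 13, 90437956 to 90443157), was lower in all 12 rats with an ethanol history than in any control rat. Control rats had 7.96 to 11.9 CPM (median 8.94), ethanol rats 1.78 to 6.82 CPM (median 5.49) and withdrawal rats 0.488 to 5.64 CPM (median 2.24) (−1.47 ± 0.252 SE on the log2 scale, limma-voom q = 0.0158, exact permutation p = 0.00129). Its mean was lower in withdrawal than in ethanol rats, and this difference, −1.05 (95% interval −1.94 to −0.17, q = 0.207 by limma-voom), did not pass the threshold. None of the other 14 genes of the immature neuron list that were tested, and none of 12 genes of cell division, was called.

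Capn6, a calpain without protease activity, was at 3.54 to 4.52 CPM (median 3.81) in control rats, 1.55 to 3.54 CPM (median 2.14) in ethanol rats and 2.20 to 3.12 CPM (median 2.38) in withdrawal rats (−0.72 ± 0.134 SE on the log2 scale, limma-voom q = 0.0252, exact permutation p = 0.000108). All rats with an ethanol history but ethanol rat 4 lay below every control rat, and the call was lost without control rat 6. Pex19, which carries membrane proteins to peroxisomes, was at 81.6 ± 2.78 CPM in control, 71.5 ± 5.05 CPM in ethanol and 69.1 ± 4.81 CPM in withdrawal rats (SD, n = 6; −0.21 ± 0.0437 SE on the log2 scale, limma-voom q = 0.0396, exact permutation p = 0.000215), and its call was lost without control rat 4 or 6. Smok, a sperm motility kinase gene, was at 0.874 ± 0.188 CPM in control, 0.483 ± 0.147 CPM in ethanol and 0.377 ± 0.110 CPM in withdrawal rats. Slc25a51l1, a gene like that of a mitochondrial carrier, was at 0.950 ± 0.154 CPM in control, 0.585 ± 0.104 CPM in ethanol and 0.604 ± 0.125 CPM in withdrawal rats. Both were low in all rats but lay below control in all 12 (exact permutation p = 5.39e-05 for both, the smallest that 18564 splits of 18 rats can give). This p restates the separation and is not adjusted over the genes tested. The Smok means in ethanol and in withdrawal rats lay under the filter of 0.5 CPM. The long noncoding RNA LOC108352949 (chromosome 15, 67567690 to 67588470) was at 14.8 ± 2.91 CPM in control, 7.90 ± 2.81 CPM in ethanol and 8.36 ± 1.44 CPM in withdrawal rats (−0.90 ± 0.151 SE on the log2 scale, limma-voom q = 0.0146, exact permutation p = 0.000215). The other decreased genes of the 45 were the stathmin-like pseudogene Stmnl-ps4 (−0.31, q = 0.0252 by limma-voom), Pdilt, of the protein disulfide isomerase family (−1.18, q = 0.0498), the C-type lectin gene Clec12b (−0.96, q = 0.0577), and 6 genes without a symbol. One of these had the largest change of the 45 (−2.09, q = 0.0116 by limma-voom) and lay at 0.603 to 1.57 CPM in control and 0.0558 to 0.565 CPM in the other rats. The control rats, where it is high, met the filter of 0.5 CPM on their own, so its test and rank rest on that group.

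**Figure D1:**
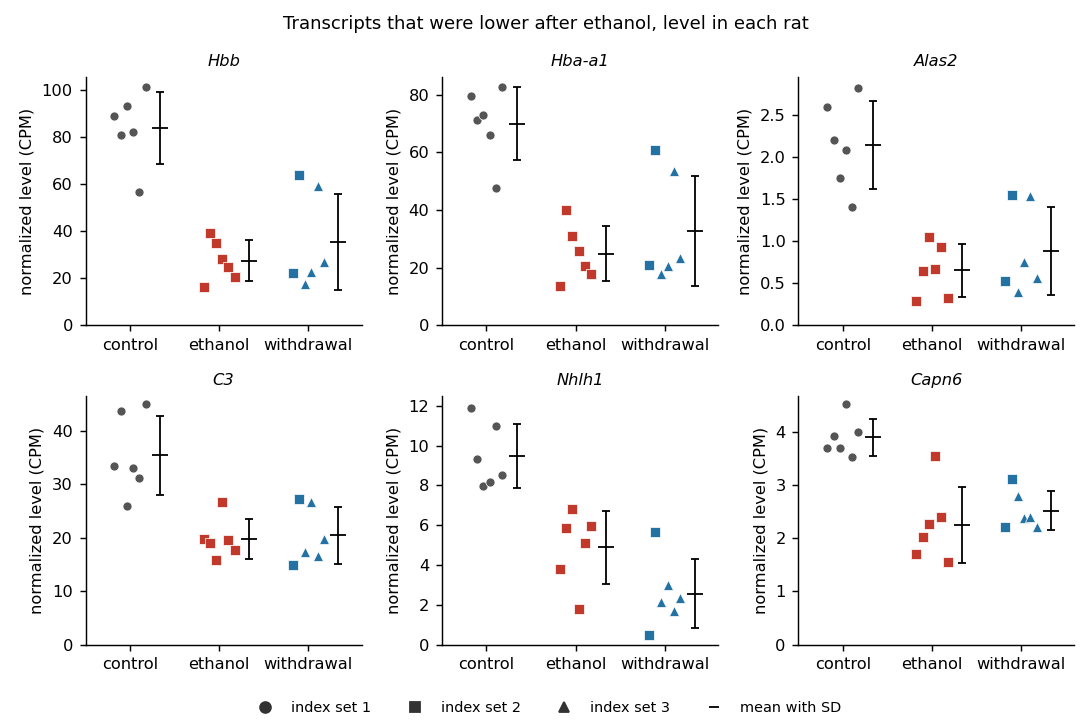
TMM-normalized CPM of Hbb, Hba-a1, Alas2, C3, Nhlh1 and Capn6 in each of the 18 rats, by group, with marker shapes for the index sets and bars for the mean ± SD of 6 rats. Withdrawal rats 2 and 5 are the highest of their group for Hbb, Hba-a1 and Alas2, and for Nhlh1 all 12 rats with an ethanol history sit below the 6 control rats.

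Ribosomal protein genes were the largest group among the increases. Of 71 cytosolic ribosomal protein genes tested (78 were listed by symbol), 32 were increased and none decreased, against a background of 1.50% increased genes. All 71 had a higher fitted level in rats with an ethanol history, with log2 fold changes between 0.04 and 0.29 and a median of 0.15, whereas 50.3% of all genes tested were higher. Such genes move together, so they are not 71 separate observations. The family was drawn up after its members had been seen among the calls. Under the DESeq2, upper quartile and library size scalings the 71 also stayed higher, with 31, 21 and 19 called.

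Their summed level was 9378 to 10895 CPM (median 10466) in control, 11412 to 12159 CPM (median 11600.3) in ethanol and 10609 to 12084 CPM (median 11199.7) in withdrawal rats. It was above every control rat in all 6 ethanol rats and in 4 of the 6 withdrawal rats. Without surrogate variables 7 of the 71 were called by limma-voom, 5 by edgeR and 33 by DESeq2. With 1 rat left out the count was 13, 16, 4, 3 and 1 without control rats 1, 2, 3, 4 and 6. It was 16 and 14 without ethanol rats 5 and 6, and 18 and 12 without withdrawal rats 1 and 6. It was highest (42) without withdrawal rat 2. It was 13 with withdrawal rats 1 and 5 and ethanol rat 1 left out together, and 0 with withdrawal rat 4 left out as well. None of the 71 differed between withdrawal and ethanol rats (q < 0.1, limma-voom).

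Rpsa, a protein of the small subunit that is also known as the laminin receptor (chromosome 8, 128806053 to 128809987), was called in each of the 18 models that left out 1 rat. Control rats had 306, 306, 282, 289.9, 307 and 291 CPM, ethanol rats 358, 355, 372, 367, 328 and 369 CPM, and withdrawal rats 367, 306, 325, 339, 343 and 334 CPM (0.22 ± 0.0365 SE on the log2 scale, limma-voom q = 0.0146, exact permutation p = 0.000269). The 11 rats other than withdrawal rat 2 lay above every control rat. Rpl27, of the large subunit, was at 58.4 to 71.8 CPM (median 68.2) in control rats, 74.8 to 82.9 CPM (median 80.9) in ethanol rats and 72.9 to 82.4 CPM (median 76.6) in withdrawal rats (0.21 ± 0.0405 SE on the log2 scale, limma-voom q = 0.0262, exact permutation p = 5.39e-05), with no overlap between the 12 rats and the control rats. Its call was lost without control rat 6, and control rat 3 lay below the other controls. Another 5 were called in both models. Among them were Rpl10a (log2 fold change 0.19), Fau, which encodes a small-subunit protein joined to a ubiquitin-like peptide (0.21), Rps23 (0.18) and Rps12 (0.22), with q between 0.0279 and 0.0556 by limma-voom. These 5 lost their calls without control rat 6, and all but Rpl10a also without control rat 4. Rack1, a scaffold on the small subunit that is not a ribosomal protein by symbol, was higher, at 149 ± 4.56 CPM in control, 165 ± 2.84 CPM in ethanol and 159 ± 4.05 CPM in withdrawal rats (0.12 ± 0.0257 SE on the log2 scale, limma-voom q = 0.0466, exact permutation p = 0.000108).

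Ribosomal protein genes have many processed copies in the genome, so counts of single members that share sequence with a copy are uncertain.

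The start of these genes is shown because the pyrimidine run there is the feature that the mRNAs share. Each line gives 30 bases from 15 before the RefSeq start in GRCr8, 5′ to 3′ on the strand of the gene, and capitals mark the longest unbroken run of C and T, within this window, that holds the start base or comes within 2 bases of it.
Rps23, chr2:23814502-23814531: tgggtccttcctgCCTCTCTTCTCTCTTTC
Fau, chr1:212779498-212779527: ggacgtgcgcgcccccgCTCCTTCCTCTTT
Rpl10a, chr20:6390518-6390547: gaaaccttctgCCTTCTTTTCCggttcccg
Rpsa, chr8:128728864-128728893: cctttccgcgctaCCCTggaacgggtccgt
Rps12, chr1:23500060-23500089: gcacagaagcccagCagagcgcttaaatac
The run was 17 bases in Rps23, 13 in Fau and 11 in Rpl10a, but 4 in Rpsa and 1 in Rps12 as these starts are annotated. A run of at least 6 bases was found in 39 of the 56 tested ribosomal protein genes with a promoter in the table (69.6%, median run 10), and in 13.1% of the 27457 genes there (median 2), with the first listed start taken for each gene.

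Other parts of the translation and energy machinery held a few called genes each, where 1.50% of all genes were increased. Of 6 translation elongation factor genes 2 were increased (Eef2 and Eef1b2, neither without surrogate variables, and both lost without any of 11 single rats), of 82 subunits of oxidative phosphorylation 1 (Cox8a), of 38 proteasome subunits 1 (Psma7), and of 72 mitochondrial ribosomal proteins none. For the 16 genes of the mitochondrial genome that were tested, all fitted levels were higher (median log2 fold change 0.16), and 2 were called. Of these 2, which have no symbol in the table used, 1 was also called without surrogate variables and lost its call only without control rat 6, and the other was lost without any of 9 single rats. The summed level of the 16 overlapped between the groups, since 6 of 12 rats lay above every control rat and 1 lay below. These lists were also drawn up after the calls had been seen. Ribosomal protein genes are short, and length moved with the calls, since the median exon length was 2366.5 bases in increased genes, 3809 in decreased genes and 3021 in all genes tested. Of the genes under 1000 bases 3.56% were increased and 0.889% decreased. The part of length in the increase was not tested.

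**Figure D2:**
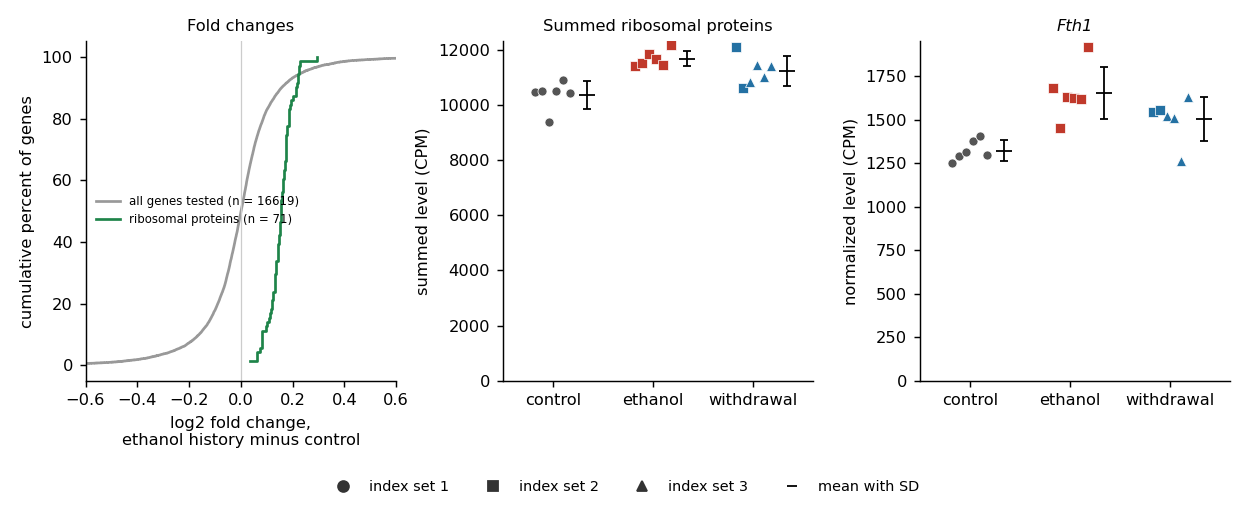
Cumulative distribution of the log2 fold changes (ethanol history minus control) of the 71 cytosolic ribosomal protein genes and of all genes tested, the summed level of the 71 genes in each rat in CPM, and the level of Fth1 in each rat in CPM, with bars for the mean ± SD. The distribution of the 71 genes lies to the right of that of all genes, and 10 of 12 rats with an ethanol history have a summed level above every control rat.

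The other genes that rose in both models had varied roles. Fth1, the heavy chain of the iron store ferritin (chromosome 1, 226030940 to 226033228), was at 1251, 1291, 1316, 1379, 1406 and 1296 CPM in control rats. It was at 1684, 1451, 1631, 1627, 1621 and 1918 CPM in ethanol rats and at 1543, 1558, 1524, 1511, 1263 and 1629 CPM in withdrawal rats (0.25 ± 0.0382 SE on the log2 scale, limma-voom q = 0.0124, exact permutation p = 0.000916). All but withdrawal rat 5 lay above every control rat, and the call held in each of the 18 models that left out 1 rat. Fth1 was the only one of 15 iron handling genes called, where 1.50% of all genes were increased, and like the ribosomal protein genes it has processed copies.

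Igfbp7, a secreted binding protein of insulin-like growth factors that is abundant in vessels (chromosome 14, 33010300 to 33070193), was at 58.9 to 65.97 CPM (median 61.6) in control rats, 69.2 to 82.5 CPM (median 75.05) in ethanol rats and 64.5 to 78.7 CPM (median 70.6) in withdrawal rats (0.26 ± 0.0396 SE on the log2 scale, limma-voom q = 0.0124, exact permutation p = 0.000539). Kif5a, the neuronal heavy chain of kinesin-1, the motor of transport along axons (chromosome 7, 70515832 to 70552897), was at 658 to 908 CPM (median 803) in control rats, 822 to 1199 CPM (median 1045) in ethanol rats and 904 to 1199 CPM (median 1067) in withdrawal rats (0.41 ± 0.0660 SE on the log2 scale, limma-voom q = 0.0146, exact permutation p = 0.000431). Both kept their calls in each of the 18 models, with 11 and 9 of the 12 rats above every control rat. The other 2 kinesin-1 heavy chains were increased only with surrogate variables. Kif5b rose by 0.17 (q = 0.0883 with and 0.245 without them, limma-voom) and Kif5c by 0.12 (q = 0.0625 and 0.386). None of the 4 light chain genes was called, so 3 of the 7 genes were increased, against 1.50% of all genes. This list was drawn up after the calls had been seen. Kif5b lost its call without any of 14 single rats and Kif5c without any of 7. The summed level of the 7 genes was above every control rat in 11 of the 12 rats.

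Sppl2b, an intramembrane protease (chromosome 7, 11712187 to 11724915), separated the rats with little spread. It was at 46.9 to 50.03 CPM (median 48.6) in control rats, 55.1 to 56.9 CPM (median 55.9) in ethanol rats and 50.6 to 56.1 CPM (median 53.4) in withdrawal rats (0.16 ± 0.0271 SE on the log2 scale, limma-voom q = 0.0146, exact permutation p = 5.39e-05). Ube2m, the enzyme that conjugates the ubiquitin-like NEDD8, was at 115 to 129 CPM (median 125) in control rats, 131 to 149.5 CPM (median 138) in ethanol rats and 133 to 148 CPM (median 138) in withdrawal rats (0.18 ± 0.0347 SE on the log2 scale, limma-voom q = 0.0262, exact permutation p = 5.39e-05), likewise with no overlap. Both held in each of the 18 models. Cops6, a subunit of the COP9 signalosome that removes NEDD8, rose by 0.15 (q = 0.0308 by limma-voom), Oaz1, the antizyme that limits polyamine synthesis, by 0.19 (q = 0.0329), and Micos10, a subunit of the mitochondrial cristae complex, by 0.24 (q = 0.0375). The calls of these 3 were lost without control rat 3 or 6. H2az1, a histone variant, was at 76.9 to 82.7 CPM (median 80.6) in control rats, 83.5 to 90.8 CPM (median 87.9) in ethanol rats and 84.6 to 100.2 CPM (median 91.6) in withdrawal rats (log2 fold change 0.17, q = 0.0252 by limma-voom; lost without control rat 6). Ckb, the brain creatine kinase, was at 704 to 752 CPM (median 723) in control rats, 769 to 977 CPM (median 819.8) in ethanol rats and 800.1 to 1019.7 CPM (median 846) in withdrawal rats (0.23 ± 0.0481 SE on the log2 scale, limma-voom q = 0.0436, exact permutation p = 0.000269; lost without control rat 3, 4 or 6), and for both the 12 rats lay above every control rat.

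Hapln2, a link protein that oligodendrocytes lay down at nodes of Ranvier (chromosome 2, 187395104 to 187402076), was higher in these rats, at 139 ± 10.5 CPM in control, 200.1 ± 29.2 CPM in ethanol and 193 ± 36.1 CPM in withdrawal rats (SD, n = 6; 0.45 ± 0.0902 SE on the log2 scale, limma-voom q = 0.0325, exact permutation p = 0.000539). All rats with an ethanol history but withdrawal rat 3 lay above every control rat, and the call was lost without control rat 4 or 6. Hapln1, the link protein of perineuronal nets, was decreased only with surrogate variables (log2 fold change −0.31, q = 0.0883 with and 0.366 without them, limma-voom) and lost its call without any of 8 single rats. The other 11 of the 13 genes of matrix proteoglycans tested were not called. None of 12 myelin genes was called. Of 8 genes of oligodendrocyte precursors, Olig1, a transcription factor of the lineage, rose by 0.17 (q = 0.0402 with, 0.142 without surrogate variables by limma-voom). Gpr17, a receptor of cells about to differentiate, fell by 0.41 on the log2 scale (q = 0.0707 and 0.208, limma-voom). The calls were lost without any of 2 (Olig1) and 8 (Gpr17) single rats, and over all genes 1.50% were increased and 0.933% decreased.

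Itgb3, which encodes the integrin beta 3 subunit (chromosome 10, 92667869 to 92783413), was the 1 gene of the 45 that differed between withdrawal and ethanol rats. It was at 0.214 to 0.601 CPM (median 0.413) in control rats, 0.669 to 1.16 CPM (median 0.862) in ethanol rats and 0.493 to 0.727 CPM (median 0.654) in withdrawal rats (0.91 ± 0.179 SE on the log2 scale, limma-voom q = 0.0286, exact permutation p = 0.000215). Ethanol rats lay above every control rat, as did 4 of 6 withdrawal rats, and withdrawal rats were lower than ethanol rats by 0.70 on the log2 scale (95% interval −1.13 to −0.27, q = 0.0997 by limma-voom). Its level is low in all rats, and the difference between withdrawal and ethanol was not called without ethanol rat 2, ethanol rat 3 or withdrawal rat 6. Sinhcaf, a subunit of the SIN3 histone deacetylase complex (0.72, q = 0.0402 by limma-voom), and Tmem200b (0.64, q = 0.0481) were also called in both models and were low. Of 23 integrins and adhesion molecules tested, 3 were increased, against 1.50% of all genes. Besides Itgb3 these were Itgb5 and Itga1, with surrogate variables only (0.25, q = 0.0707 and 0.29, q = 0.0883 by limma-voom). Their calls were lost without any of 6 and 14 single rats.

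The withdrawal minus ethanol difference describes how far the 45 genes had returned by 24 h. In 38 of the 45 its 95% interval held 0, the differences lay between −1.05 (Nhlh1) and 0.20, and the median half-width of the intervals was 0.21. For Rpsa and Sppl2b, with small changes, the intervals were −0.20 to −0.00043 and −0.17 to −0.02, against changes of 0.27 and 0.21 between ethanol and control rats (log2). For Hbb and Alas2 the upper bounds were 0.79 and 1.03 against fold changes of −1.59 and −1.64 between ethanol and control rats (log2), so that a full return lay outside the intervals and a partial one inside. The changes between ethanol and control rats carry an error of their own, and the 45 genes were chosen for a difference over both groups. Of the 405 genes 28 (6.91%) differed between withdrawal and ethanol rats, against 3.07% of all genes tested. These were 15 increased and 13 decreased genes, and for 310 of the 405 the interval held 0. The count of 28 was 1 without surrogate variables, 73 with 4 of them, 92 with sample quality weights and 0 to 114 with single rats left out (0 without ethanol rat 2, ethanol rat 3 or withdrawal rat 6, 114 without withdrawal rat 2). Ak4, a mitochondrial adenylate kinase, had a larger decrease in withdrawal rats, with 95.5 ± 8.81 CPM in control, 85.7 ± 8.11 CPM in ethanol and 76.4 ± 8.50 CPM in withdrawal rats (SD, n = 6). Its withdrawal minus ethanol difference was −0.21 (95% interval −0.31 to −0.11, q = 0.0490 by limma-voom). Cd63, a tetraspanin of late endosomes, was at 58.5 ± 3.45 CPM in control, 71.2 ± 8.20 CPM in ethanol and 73.00 ± 12.2 CPM in withdrawal rats (SD, n = 6), and its withdrawal minus ethanol difference was 0.19 (95% interval 0.08 to 0.31, q = 0.0997 by limma-voom) with surrogate variables. Neither was called without surrogate variables.

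**Figure D3:**
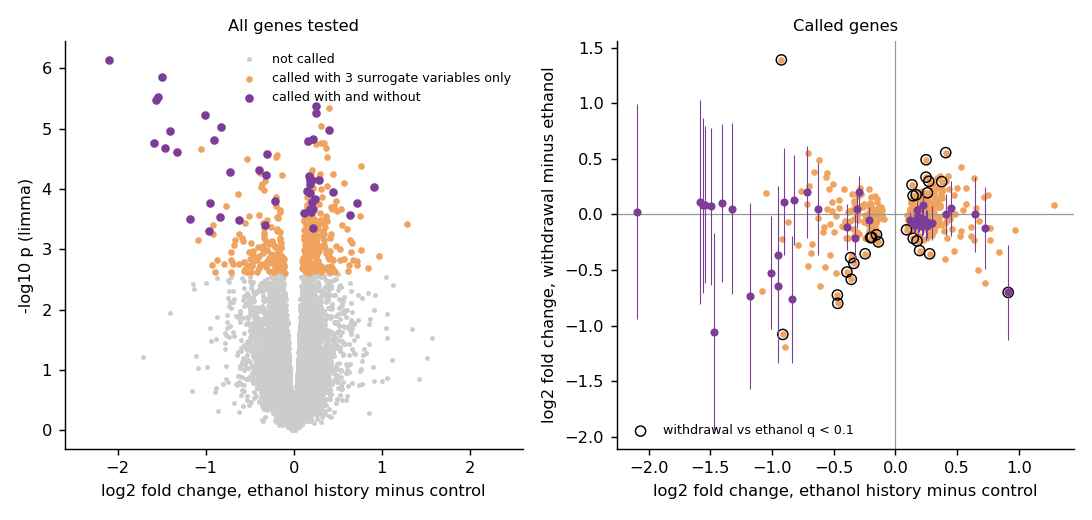
Left, the log2 fold change of each tested gene (ethanol history minus control) against −log10 of its p, and right, the withdrawal minus ethanol difference against the ethanol history minus control difference for the called genes, both on the log2 scale. Purple points with 95% intervals are the 45 genes called with and without surrogate variables, and black rings mark genes with q < 0.1 between withdrawal and ethanol. The hemoglobins and Alas2 lie toward the left with intervals across 0, and a gene without a symbol lies farther left (−2.09).

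Index set could be examined in part, since withdrawal rats came from sets 2 and 3. All 45 genes lay on the same side of the control mean in withdrawal rats 1 and 2 (set 2) and in withdrawal rats 3 to 6 (set 3). The genes were chosen for a difference that includes these rats and the same control rats. Their shared side was therefore nearly given and is a description only. For Hbb the difference from control in log2(CPM + 0.5) was −1.63 in ethanol rats (set 2), −1.12 in withdrawal rats of set 2 and −1.53 in withdrawal rats of set 3. For Rpsa the values were 0.27, 0.17 and 0.17. No control rat shares a set with the others, so these values do not separate the index from the diet.

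Genes of the endothelium list were called by limma-voom only with surrogate variables. Of 23 endothelium markers tested, 6 were increased (Kdr, Eng, Egfl7, Emcn, Pecam1 and Cldn5) and none decreased, against 1.50% of all genes, 21 had a higher fitted level, and the median log2 fold change was 0.15. Without surrogate variables none of the 23 was called by limma-voom or by the quasi-likelihood test of edgeR, and 4 were called by DESeq2. With them the count was 1 or 2 without any one of the control rats, ethanol rat 5 or 6, or withdrawal rat 6, 4 without withdrawal rat 1, 3 with withdrawal rats 1 and 5 and ethanol rat 1 left out together, and 0 with withdrawal rat 4 left out as well. Eng, a coreceptor for BMP and TGF-beta ligands (chromosome 3, 11679530 to 11717486), was the exception that kept its call in each of the 18 models. It was at 19.1 to 24.8 CPM (median 21.3) in control rats, 25.5 to 29.6 CPM (median 28.1) in ethanol rats and 22.4 to 33.1 CPM (median 26.3) in withdrawal rats (0.34 ± 0.0581 SE on the log2 scale, limma-voom q = 0.0146, exact permutation p = 0.000808; q = 0.142 without surrogate variables). All 6 ethanol rats and 4 withdrawal rats lay above every control rat.

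Emcn, a sialomucin of capillary and venous endothelium, was at 6.83 to 8.36 CPM (median 7.73) in control rats, 8.43 to 11.4 CPM (median 9.13) in ethanol rats and 8.57 to 10.96 CPM (median 9.46) in withdrawal rats (0.29 ± 0.0742 SE on the log2 scale, limma-voom q = 0.0768, exact permutation p = 0.000108), and for it the 12 rats did not overlap with the control rats. Pecam1, a junction protein, was at 10.7 to 13.4 CPM (median 12.03) in control rats, 11.3 to 15.9 CPM (median 14.9) in ethanol rats and 13.4 to 18.1 CPM (median 14.3) in withdrawal rats (0.27 ± 0.0636 SE on the log2 scale, limma-voom q = 0.0625, exact permutation p = 0.00248), and 10 of the 12 rats lay above every control rat. Kdr, the VEGF receptor 2, had the largest of the 6 changes and also the widest spread, with 14.2 ± 3.63 CPM in control, 18.5 ± 3.11 CPM in ethanol and 21.2 ± 6.24 CPM in withdrawal rats (SD, n = 6; 0.42 ± 0.116 SE on the log2 scale, limma-voom q = 0.0913, exact permutation p = 0.0163). Cldn5, of the tight junctions of the blood-brain barrier, rose by 0.14 (q = 0.0994 by limma-voom) and Egfl7, a matrix-bound vessel protein, by 0.34 (q = 0.0695), with withdrawal rat 1 the highest at 19.96 CPM. The summed level of the 23 genes was 626 to 710.0 CPM (median 664) in control, 687 to 772 CPM (median 747) in ethanol and 678 to 847 CPM (median 753) in withdrawal rats, and 8 of 12 rats lay above every control rat. None of 10 mural cell markers was called. In the related list of 21 BMP, SMAD and ID genes tested, Eng and Smad6 were increased, again against 1.50% of all genes. Smad6, an inhibitor of BMP signaling, was at 2.44 ± 0.286 CPM in control, 3.85 ± 0.389 CPM in ethanol and 2.76 ± 0.622 CPM in withdrawal rats (SD, n = 6; q = 0.0841 by limma-voom, lost without any of 11 single rats), with all 6 ethanol rats and 2 withdrawal rats above every control rat.

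**Figure D4:**
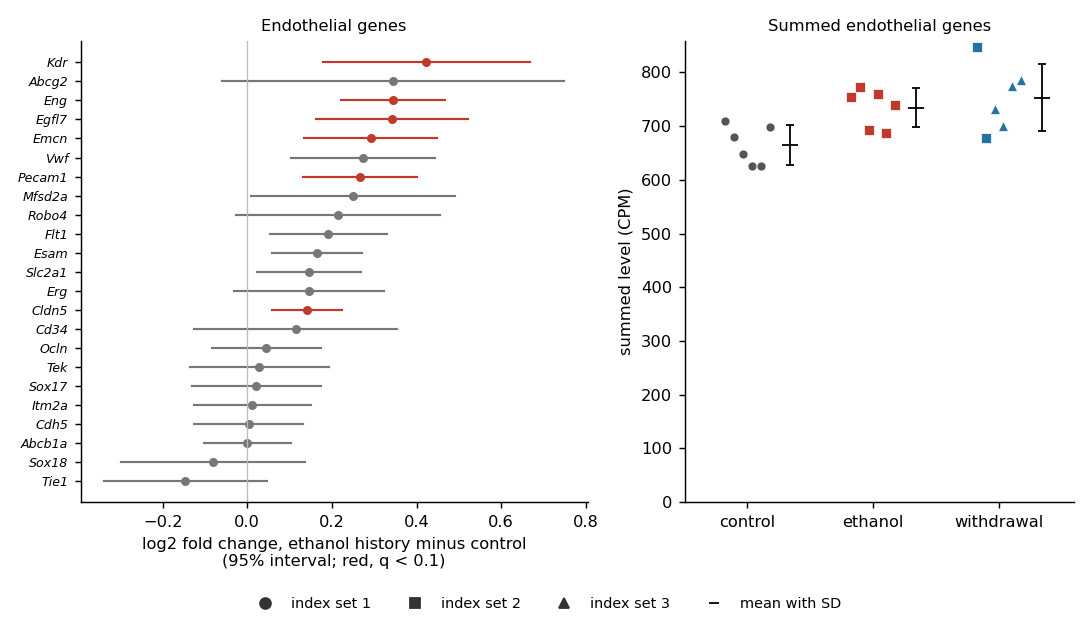
Log2 fold changes (ethanol history minus control) of the 23 endothelium markers with 95% intervals, red where q < 0.1 by limma-voom with 3 surrogate variables, and the summed CPM of the 23 genes in each rat with the mean ± SD. The 6 red genes are Kdr, Eng, Egfl7, Emcn, Pecam1 and Cldn5, and the summed level of control rats (626 to 710 CPM) overlaps with 4 of the 12 other rats.

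Genes of ciliated cells and of neighbouring tissue varied widely among rats, and their levels are given beside the calls they touch. Of 5 ependyma markers tested 4 were increased (Foxj1, Tmem212, Drc12 and Rsph1), of 25 motile cilia genes 7, and of 43 cilia and flagella associated proteins 5, against 1.50% of all genes. By limma-voom all were called only with surrogate variables, and without them edgeR and DESeq2 called none of the 5 ependyma markers. Foxj1, the master transcription factor of motile cilia, was at 13.9 to 19.5 CPM (median 15.6) in control rats, 16.4 to 41.3 CPM (median 30.2) in ethanol rats and 8.45 to 38.3 CPM (median 13.3) in withdrawal rats. Of the 12 rats 6 lay above and 3 below every control rat. The two-sided exact permutation test gave p = 0.307, whereas limma-voom with surrogate variables gave q = 0.0599 and without them 0.722. Rsph1, of the radial spoke (0.42, q = 0.0596 by limma-voom), Drc12, of the dynein regulatory complex (0.43, q = 0.0436), and Tmem212 (0.46, q = 0.0423) had permutation p between 0.0707 and 0.119 (exact, two-sided). The count of 4 fell to 2 without control rat 1 or 3 and to 0 without control rat 4 or 6, and it was also 0 with the 4 rats farthest from the centre left out together.

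Choroid plexus, which lies against the hippocampus in the ventricle, was present to very different extents. The summed level of its 11 markers was 1173 to 2439 CPM (median 1734) in control, 1589 to 5736 CPM (median 2992) in ethanol and 34.9 to 5762 CPM (median 1532) in withdrawal rats, with withdrawal rats 4 and 5 at 34.9 and 39.0 CPM and none of the 11 called. The summed level of 13 genes of striatal projection neurons, whose tissue lies next to the dissected block, was 235.1 to 296 CPM (median 261) in control, 259.7 to 801 CPM (median 364) in ethanol and 286 to 371 CPM (median 317) in withdrawal rats, with ethanol rats 1 (801.1 CPM) and 4 (635.8 CPM) far above the others. Of these 13 genes 3 were increased, against 1.50% of all genes, among them Drd2, the dopamine D2 receptor, and Ppp1r1b, which encodes DARPP-32. Their changes were 0.65 and 0.36 on the log2 scale, with q of 0.0771 and 0.0939 by limma-voom with surrogate variables. Neither was called without surrogate variables, and the calls were lost without any of 10 (Drd2) and 12 (Ppp1r1b) single rats, withdrawal rat 1 among them. The part of neighbouring tissue in these calls was not tested. The striatal and motile cilia lists were drawn up after the calls had been seen. Sums for meninges lay between 122.0 and 662.7 CPM over the withdrawal rats and between 248.6 and 341.9 CPM over the control rats, with none of 7 markers called.

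**Figure D5:**
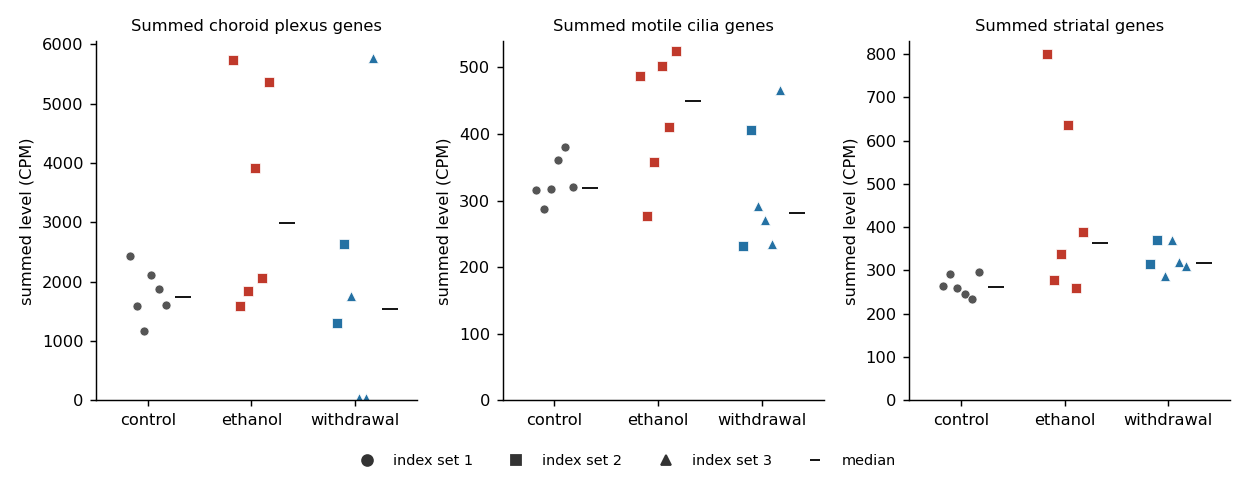
Summed CPM of 11 choroid plexus markers, 25 motile cilia genes and 13 striatal projection neuron genes in each rat, by group, with a bar for the median and marker shapes for the index sets. Withdrawal rats 4 and 5 (34.9 and 39.0 CPM) are the lowest for choroid plexus, and ethanol rats 1 and 4 are the highest for the striatal genes.

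Over all 45 lists of cell types and pathways, 645 of 673 genes were tested, of which 26 were increased and 15 decreased with surrogate variables, and 8 were called without them by limma-voom. Over all genes tested the shares were 1.50% increased, 0.933% decreased and 0.271% called without them. Of the receptors and channels on which ethanol is known to act, none of 14 GABA-A receptor subunits, 15 ionotropic glutamate receptor subunits, 15 voltage-gated calcium channel subunits or 9 BK, SK and GIRK channel genes was called. Syn2, a synaptic vesicle phosphoprotein, fell by 0.15 on the log2 scale (q = 0.0815 by limma-voom) as the 1 called of 25 genes of vesicle release. Npy5r, a neuropeptide Y receptor, fell by 0.25 on that scale (q = 0.0788 by limma-voom) as the 1 called of 22 neuropeptides and receptors. Neither was called without surrogate variables, and the calls were lost without any of 9 (Syn2) and 8 (Npy5r) single rats. None of 11 tested genes of ethanol and acetaldehyde metabolism, 14 heat shock genes, 21 interferon-induced genes, 15 microglia markers or 19 activity-regulated early genes was called. For the interferon-induced genes the pooled difference joins groups that lay apart, with a median log2 fold change of −0.28 in ethanol rats and 0.37 in withdrawal rats, each against the same control rats. Of these 21 genes 8 passed the test between withdrawal and ethanol, with the higher level in withdrawal (q < 0.1, limma-voom), against 3.07% of all genes that differed in either direction. No gene was called in that comparison without ethanol rat 2, ethanol rat 3 or withdrawal rat 6. The early genes had a median log2 fold change of 0.40 and 16 of 19 were higher, but their spread among rats was wide.

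A few stress, clock, chromatin and splicing genes were called, each only with surrogate variables. These were 1 of 16 glucocorticoid-induced genes, 2 of 16 clock genes, 2 of 16 genes of DNA methylation and 2 of 31 of the core spliceosome among others, where 1.50% of all genes were increased and 0.933% decreased. Mt2A, a metallothionein and glucocorticoid target, rose by 0.66 (q = 0.0671), with 13.5 ± 2.76 CPM in control, 23.9 ± 6.65 CPM in ethanol and 18.3 ± 6.58 CPM in withdrawal rats (SD, n = 6). Gpx4, which reduces lipid peroxides, rose by 0.14 (q = 0.0629, limma-voom) and was higher in all 12 rats than in any control rat. Gadd45g, a stress-induced gene of the Gadd45 family, was at 5.36 to 7.47 CPM (median 6.59) in control rats, 8.27 to 12.5 CPM (median 8.56) in ethanol rats and 8.32 to 17.3 CPM (median 9.45) in withdrawal rats (0.57 ± 0.149 SE on the log2 scale, limma-voom q = 0.0831, exact permutation p = 0.000593), likewise without overlap. Srebf1, the regulator of lipid synthesis genes (0.23, q = 0.0568), Npas2, a clock factor (0.25, q = 0.0556), Hdac7 (0.19, q = 0.0596), Mbd3, of the NuRD complex (0.14, q = 0.0884), and the splicing factors Snrpb (0.17, q = 0.0481) and Sf3a2 (0.16, q = 0.0707) rose by limma-voom. Per3, a clock gene (−0.43, q = 0.0841), Asns, the asparagine synthetase (−0.15, q = 0.0667), and Gja1, the astrocyte gap junction protein connexin 43 (−0.15, q = 0.0444), fell. The calls of these 12 genes ended without 2 (Gja1) to 14 (Mbd3) single rats.

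Several genes kept their calls in each of the 18 models that left out 1 rat but were called only with surrogate variables. Among them were Ints2, of the Integrator complex (−0.19), Chrm5, a muscarinic receptor (−0.53), the olfactory receptor gene Or9s13 (−1.05) and Ak4, all decreased, and Cd63, Akna (0.31), Socs5, a member of the cytokine signaling suppressors (0.15), Cd24 (0.31) and the cadherin-related Cdhr4 (0.40), all increased. For Cd24 and Cdhr4 the levels of the rats themselves overlapped widely. Cd24 was at 42.00 to 59.1 CPM (median 52.4) in control rats, 44.1 to 95.3 CPM (median 56.8) in ethanol rats and 33.6 to 72.8 CPM (median 65.2) in withdrawal rats, and the exact permutation p was 0.219, and q was 0.714 without surrogate variables by limma-voom. For Ints2 the levels were 48.2 ± 2.88 CPM in control, 40.5 ± 4.83 CPM in ethanol and 42.4 ± 3.37 CPM in withdrawal rats (SD, n = 6; −0.19 ± 0.0332 SE on the log2 scale, limma-voom q = 0.0171, exact permutation p = 0.00356).

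Of genes that the study examined for withdrawal, 6 were not called in the pooled comparison. The study reported their mRNA as increased in withdrawal against control rats. The pooled comparison averages withdrawal with ethanol rats and so asks another question. Stat3 had a log2 fold change of 0.17 (q = 0.234), Gfap of 0.14 (q = 0.665), Socs3 of 0.80 (q = 0.300), Tnfrsf1a of 0.36 (q = 0.123), Timp1 of 0.78 (q = 0.325) and Osmr of 0.34 (q = 0.491, limma-voom). Of these, Gfap and Tnfrsf1a differed between withdrawal and ethanol rats (q = 0.0728 and 0.0734). Without withdrawal rat 1 Tnfrsf1a was called in the pooled comparison (q = 0.0949), as was Icam1, an endothelial adhesion molecule (q = 0.0598 without and 0.138 with this rat). Icam1 was at 3.53 to 4.76 CPM (median 4.29) in control rats, 4.96 to 6.36 CPM (median 5.83) in ethanol rats and 4.89 to 12.02 CPM (median 5.37) in withdrawal rats, with the 12 rats all above the control rats (two-sided exact permutation p = 0.000970).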

How the data were processed

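Total RNA with integrity numbers above 8.0 was made into stranded mRNA libraries and sequenced as read pairs in 11 lanes on 2 flowcells. The authors used STAR 2.5.2a for alignment to Rnor_6.0. The values they deposited are unscaled counts, made for each gene by featureCounts 1.5.0 by strand and leaving out multi-mapped read pairs. Tools and versions are those of the submitters' processing notes. Of 38445 genes listed, 29322 were named from a RefSeq table of GRCr8, which also gave the promoter sequences. Gene coordinates are those of the deposited files. Comparison of the 45 pairs of rats within groups found no repeated library (chi-square per degree of freedom of at least 5.74).

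Library sizes were scaled by TMM (edgeR 4.0.16). Genes above 0.5 CPM in at least 6 of 18 libraries were kept. All 3 groups entered one limma 3.58.1 voom model (R 4.3.3) with 3 surrogate variables from sva 3.50.0 (log2 CPM, prior count 2). The contrasts were the mean of ethanol and withdrawal minus control, and withdrawal minus ethanol, with Benjamini-Hochberg adjustment over all genes tested (q) and a threshold of 0.1. Single genes were also tested, without adjustment over genes, by two-sided exact permutation of mean log2(CPM + 0.5) over all 18564 splits into 12 and 6 rats. Python 3.11.15, numpy 2.4.6, pandas 2.3.3 and matplotlib 3.10.9 were used for these and for the plots. The fits were tested on simulated data. Alternatives were other numbers of surrogate variables, models of 2 groups, edgeR and DESeq2 1.42.0, other scalings, filters, weights and thresholds, a replicate block, single index sets, and each rat left out.

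The members, the 45 gene lists and the rules were chosen with earlier results of these data known. Named genes were the 12 increased and 12 decreased genes of smallest p with a symbol, the 5 largest changes in each direction without overlap, up to 4 called genes per list, and genes named in earlier text. The 45 genes called in both models, the further lists by symbol or function (ribosomal, hemoglobin, iron, heme, red cell, striatal, cilia, kinesin, elongation and others), and a few genes singled out from them, were chosen after values were seen. Levels compare rats, not genes, since CPM is not scaled by length. A few named genes are not reported here.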

Additional observations from a re-analysis of the deposited data

Results flagged for a closer look

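Among 99 genes named in the text, 297 sets of 6 rats were examined for a rat far from the rest of its group (Dixon's ratio of the gap to the range above its 95% critical value), and 31 sets had one. Chance gives about 1 in 20, or 14.85 sets. Withdrawal rat 1 accounted for many of them. It was the highest withdrawal rat for Timp1 (18.9 CPM), Osmr (13.8 CPM), Icam1 (12.02 CPM), Egfl7 (19.96 CPM), Gpx4 (186 CPM), Sf3a2 (28.2 CPM), Rpl18 (95.1 CPM) and Emc6 (23.7 CPM), and the lowest for Stmnl-ps4 (5.57 CPM). Withdrawal rat 5 was the highest for Hba-a3 (2.10 CPM) and Drd2 (15.4 CPM) and the lowest for Fth1 (1263 CPM), Cd24 (33.6 CPM) and Gfap (640.3 CPM). Among the other withdrawal rats, Pdilt was highest in rat 2 (1.22 CPM), Kif5c in rat 4 (1174 CPM) and Akna in rat 6 (23.6 CPM).

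In ethanol rats, rat 4 was the highest for C3 (26.7 CPM) and LOC108352949 (13.2 CPM), 2 genes decreased in the pooled comparison, and rat 5 was the highest for Asns (87.7 CPM) and Socs3 (2.80 CPM). In control rats, rat 3 was the lowest for Rpl27 (58.4 CPM) and Micos10 (35.2 CPM), both of which were increased in the other groups. Control rat 6 was the lowest for Gja1 (354 CPM) and the highest for Egfl7 (15.0 CPM), and control rat 2 the lowest for Npy5r (6.93 CPM) and the highest for Ppp1r1b (91.3 CPM) and Tmem200b (2.75 CPM). Control rat 1 was the highest for Cd63 (65.1 CPM) and Itga1 (6.17 CPM), and control rat 5 for Mbd3 (72.7 CPM).

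The withdrawal minus ethanol difference passed the threshold in limma-voom for 5 of the named genes. It was −0.21 for Ak4 (log2, q = 0.0490), 0.19 for Cd63 (q = 0.0997), −0.70 for Itgb3 (q = 0.0997), 0.73 for Gfap (q = 0.0728) and 0.50 for Tnfrsf1a (q = 0.0734). The first 3 are genes that were also called between ethanol history and control.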

How the results depend on the processing

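The count of 405 genes depended on the surrogate variables. It was 45 with none, 65 with 1, 262 with 2, 590 with 4 and 125 with 5, 30 in a model of 2 groups with none, 37 with the quasi-likelihood test of edgeR and 234 with DESeq2 (both with none), 93 with no filter on low counts, 853 with sample quality weights, and 114 at q < 0.05. Against control alone, without surrogate variables, rats of index set 2 gave 15 and those of set 3 gave 72. Leaving out each rat gave 44 to 742. In alternatives chosen after seeing the data, it was 18, 25, 27 and 22 without withdrawal rat 1, 4 or 5 or ethanol rat 1 and without surrogate variables. With these 4 rats left out together it was 6 with and 3 without surrogate variables, from 14 rats, and 54 genes were without overlap. Between withdrawal and ethanol rats the 511 genes became 1835, 274, 1000 and 1232 with 1, 2, 4 and 5 surrogate variables, 1420 with DESeq2, 166 without a filter, 1331 with weights and 158 at q < 0.05, and 0 to 1859 when each rat was left out. It was 0 by limma-voom without ethanol rat 2, ethanol rat 3 or withdrawal rat 6, where 1992, 2084 and 1833 genes had an unadjusted p under 0.05 (edgeR and DESeq2 were not run on these), and 1859 without ethanol rat 5. The 23 genes without overlap ranged from 23 to 45 with each rat left out. Of the 41 called genes in the lists, 8 were called without surrogate variables.

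The 5 hemoglobin genes were called with each rat left out and in all other settings but 5, namely these 4 rats left out with (1) and without (2) surrogate variables, edgeR without surrogate variables (4), index set 3 alone (3), and a replicate block without surrogate variables (0). Ribosomal protein calls fell from 32 to 3 with 5 surrogate variables. Foxj1 (−0.084), Ccdc40 (−0.059) and Msx1 (−0.37) had the opposite sign in withdrawal rats of index set 3 against control. In 4 of 18 pairs of same-numbered rats the deviations from the group means correlated over 0.1 (range −0.387 to 0.449). These values do not settle whether the replicate number marks pair-fed rats. With the number as a replicate block and no surrogate variables, limma-voom called 0 genes between ethanol history and control (1396 at an unadjusted p under 0.05, all 5 hemoglobins among them) and 11 between withdrawal and ethanol. With the block and 3 surrogate variables it called 484 and 53. Depth limits mainly the genes under 1 CPM, such as Smok and Slc25a51l1.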
